A study of Homo sapiens with 52 samples.

Results

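Messenger RNA of 10 genes was followed in bulk sequencing of 3 established breast cancer cell lines: the 7 matrix metalloproteinases MMP1, MMP2, MMP3, MMP7, MMP9, MMP13 and MMP14 and the 3 tissue inhibitors of metalloproteinases TIMP1, TIMP2 and TIMP3. They were taken by gene name from the 78894 genes of the deposited tables, whatever their values, and each name gave 1 row. The 52 samples form 18 groups, 6 in each of SUM159PT, MDA-MB-231 and HS578T cells. In each line 3 groups received siRNA at 20 nM and were harvested 72 h after transfection: a non-targeting control (siNT) and the NRP1-directed sequences siNRP1#3 and siNRP1#5. The remaining groups carried a lentiviral shRNA under puromycin selection and were harvested 48 h after seeding: shNT, shNRP1#3 and shNRP1#5. NRP1 encodes neuropilin-1, a co-receptor for VEGF and semaphorins. The #3 sequences target the transmembrane form of NRP1 and the #5 sequences target the transmembrane and soluble forms, and the siRNA and shRNA named #5 have the same sequence whereas those named #3 do not. Groups hold 3 samples, except SUM159PT siNRP1#5 and HS578T shNRP1#3 with 2. The shRNA cells are selected pools, and their replicates are consecutive passages of a culture, so p-values measure the spread between these samples and not between independent transductions.

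Matrix metalloproteinases are zinc-dependent endopeptidases, most of them secreted as inactive proenzymes, that cut collagens and other components of the extracellular matrix. TIMPs bind the active site of these enzymes and block it, and TIMP2 also bridges proMMP2 to MMP14 at the cell surface, where MMP14 activates it. In breast carcinoma the family is known for matrix breakdown at the invasive front. Transcript levels say nothing about how much of each enzyme is secreted, activated or inhibited.

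Total expected counts per sample ranged from 25310443 to 72003442, with a median of 44804505. In CPM (counts scaled to the library total), 3 counts in a sample correspond to 0.0417 to 0.119. The CPM of genes are also scaled by a normalisation factor (TMM) taken over all 52 samples. NRP1 itself was lower than in the matching control in all 12 knockdown comparisons, with log2 fold changes from −4.88 to −0.70, and 11 of the 12 passed the test used below (HS578T shNRP1#3, log2 fold change −1.59, edgeR adjusted p = 0.069). In MDA-MB-231 siNRP1#3 the fall was seen in CPM (44.7 against 73.8 on average) and not in TPM (28.5 ± 3.36 against 28.8 ± 3.03, SD, n = 3). Markers that claudin-low cells lack or express were checked against the label of the lines. Those they lack, CLDN3, CLDN4, CLDN7, CDH1 and EPCAM, summed to 0.34 to 38.9 TPM in SUM159PT and HS578T. TPM is a level scaled for transcript length and library total. In MDA-MB-231 these genes summed to 98.4 to 318 TPM, and CLDN4 alone lay at 62.6 to 226, which goes against that label. CDH1 stayed at 0.02 to 3.33 TPM there. Markers that claudin-low cells express were present in every MDA-MB-231 library, which goes with the label. VIM lay at 1311 to 3469 TPM, FN1 at 46.8 to 289, ITGA6 at 29.6 to 123, ZEB1 at 5.24 to 19.7 and SNAI1 at 3.18 to 20.75. Some libraries held reads of genes that mark another of the 3 lines. The share of another line was measured over marker genes that are near silent in the own line's controls. It is the median, over these genes, of the level in percent of that in the other line's controls. The MDA-MB-231 share was 24.8, 18.1 and 13.3% in the 3 HS578T siNRP1#5 libraries, which also held 2.09, 8.72 and 1.65% of SUM159PT. It was 2.57, 3.39 and 7.42% in HS578T siNRP1#3 and at most 2.19% in HS578T siNT. MDA-MB-231 shNRP1#3 held up to 2.48% of SUM159PT and 2.05% of HS578T, and the groups not named here held 0 to 1.06%. Whether these reads came from RNA of another line, and how it would have entered the libraries, was not tested. They are called reads of other lines below. Subtracting the estimated reads at the control levels of the other lines, or at their levels under the same treatment, is given beside each of the 10 genes' calls that it ends.

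All 10 genes matched the GENCODE annotation of GRCh38 by identifier and version. MMP7, MMP1, MMP3 and MMP13 lie within 435225 bases of chromosome 11, between 102520508 and 102955732, and all 4 are read from the minus strand. MMP2 is on chromosome 16, MMP9 on 20, MMP14 on 14, TIMP2 on 17, TIMP3 on 22 and TIMP1 on X. TIMP1 lies inside SYN1 and TIMP3 inside SYN3, on the opposite strand of the host gene, and TIMP2 overlaps CEP295NL on the same strand, so TIMP2 reads in the overlap could be split between both genes.

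The RefSeq promoter table on GRCh38 held 4 of the 10 genes. The 250 bases before the start are shown for MMP14, TIMP1 and TIMP3, which were expressed in every library and in which calls are reported, so that the membrane-type enzyme can be read beside the inhibitors. They lie at chr14:22836335-22836584, chrX:47582186-47582435 and chr22:32801455-32801704, all on the plus strand. Capitals mark the GC box, searched as GGGCGG on both strands. An AP-1 site was searched as TGANTCA. The TATA box was searched as TATAAA, and neither of these latter motifs occurs in the 3 windows.
MMP14: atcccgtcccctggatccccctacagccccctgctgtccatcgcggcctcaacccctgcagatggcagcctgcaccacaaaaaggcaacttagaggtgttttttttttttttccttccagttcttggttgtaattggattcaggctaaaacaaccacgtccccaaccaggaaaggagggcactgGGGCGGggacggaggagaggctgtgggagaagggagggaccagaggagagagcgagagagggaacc
TIMP1: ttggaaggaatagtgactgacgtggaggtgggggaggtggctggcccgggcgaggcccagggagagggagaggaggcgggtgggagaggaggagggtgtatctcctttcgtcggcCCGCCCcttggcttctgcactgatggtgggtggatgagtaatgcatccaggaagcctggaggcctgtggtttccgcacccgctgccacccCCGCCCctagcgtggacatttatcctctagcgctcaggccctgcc
TIMP3: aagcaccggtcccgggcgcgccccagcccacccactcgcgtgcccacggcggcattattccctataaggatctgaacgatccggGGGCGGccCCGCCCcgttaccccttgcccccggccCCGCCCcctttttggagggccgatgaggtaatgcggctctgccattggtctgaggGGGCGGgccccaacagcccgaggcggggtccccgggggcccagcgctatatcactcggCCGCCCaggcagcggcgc
The TIMP3 window held 5 GC boxes, the nearest 18 bases before the start, the TIMP1 window 2 at 135 and 45 bases, and the MMP14 window 1 at 66 bases. MMP7, the fourth gene in the table, has an AP-1 match 67 bases and a TATA match 30 bases before its start. Of 35116 promoters of the same length, 42.6% held a GC box, 6.57% an AP-1 match and 10.7% a TATA match. These are matches of letters and not measured binding sites.

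Levels differed between the cell lines. In the 6 non-targeting controls of each line, TIMP1 was the most abundant inhibitor. It reached 2237 ± 347 TPM in SUM159PT against 350.0 ± 54.4 in HS578T and 491 ± 48.4 in MDA-MB-231 (SD, n = 6). Its part of the TPM of the 3 TIMPs was 76.8 to 85.8% in SUM159PT, while HS578T had 57.4 to 63.8% and MDA-MB-231 50.6 to 63.4%. The leading metalloproteinases were MMP2 and MMP14 in SUM159PT and HS578T, where MMP2 took 53.8 to 71.9% and 51.8 to 69.8% of the TPM of the 7 enzymes. MDA-MB-231 lacked this MMP2 signal, with 0.538 ± 0.680 TPM, and its enzyme transcripts were MMP14 (62.4 to 84.5%) and MMP1 (13.7 to 36.8%). In SUM159PT siNT the order of mean levels was TIMP1, MMP2, MMP14, TIMP3, TIMP2, MMP1, MMP3, MMP13, MMP9 and MMP7. The ranges of MMP2 (635.5 to 1052 TPM) and MMP14 (389.8 to 847) overlapped, and so did MMP14 and TIMP3 (332 to 496), MMP3 (1.88 to 4.54) and MMP13 (0.32 to 3.18), and MMP13 and MMP9 (0.05 to 0.41). In shNT the inner order was MMP2, TIMP2, TIMP3 and MMP14, where the ranges of MMP14 (67.7 to 171) and TIMP3 (134 to 157) overlapped. MMP7, an epithelial matrilysin, had 0 counts in 34 of the 52 libraries and at most 6 in any.

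**Figure D1:**
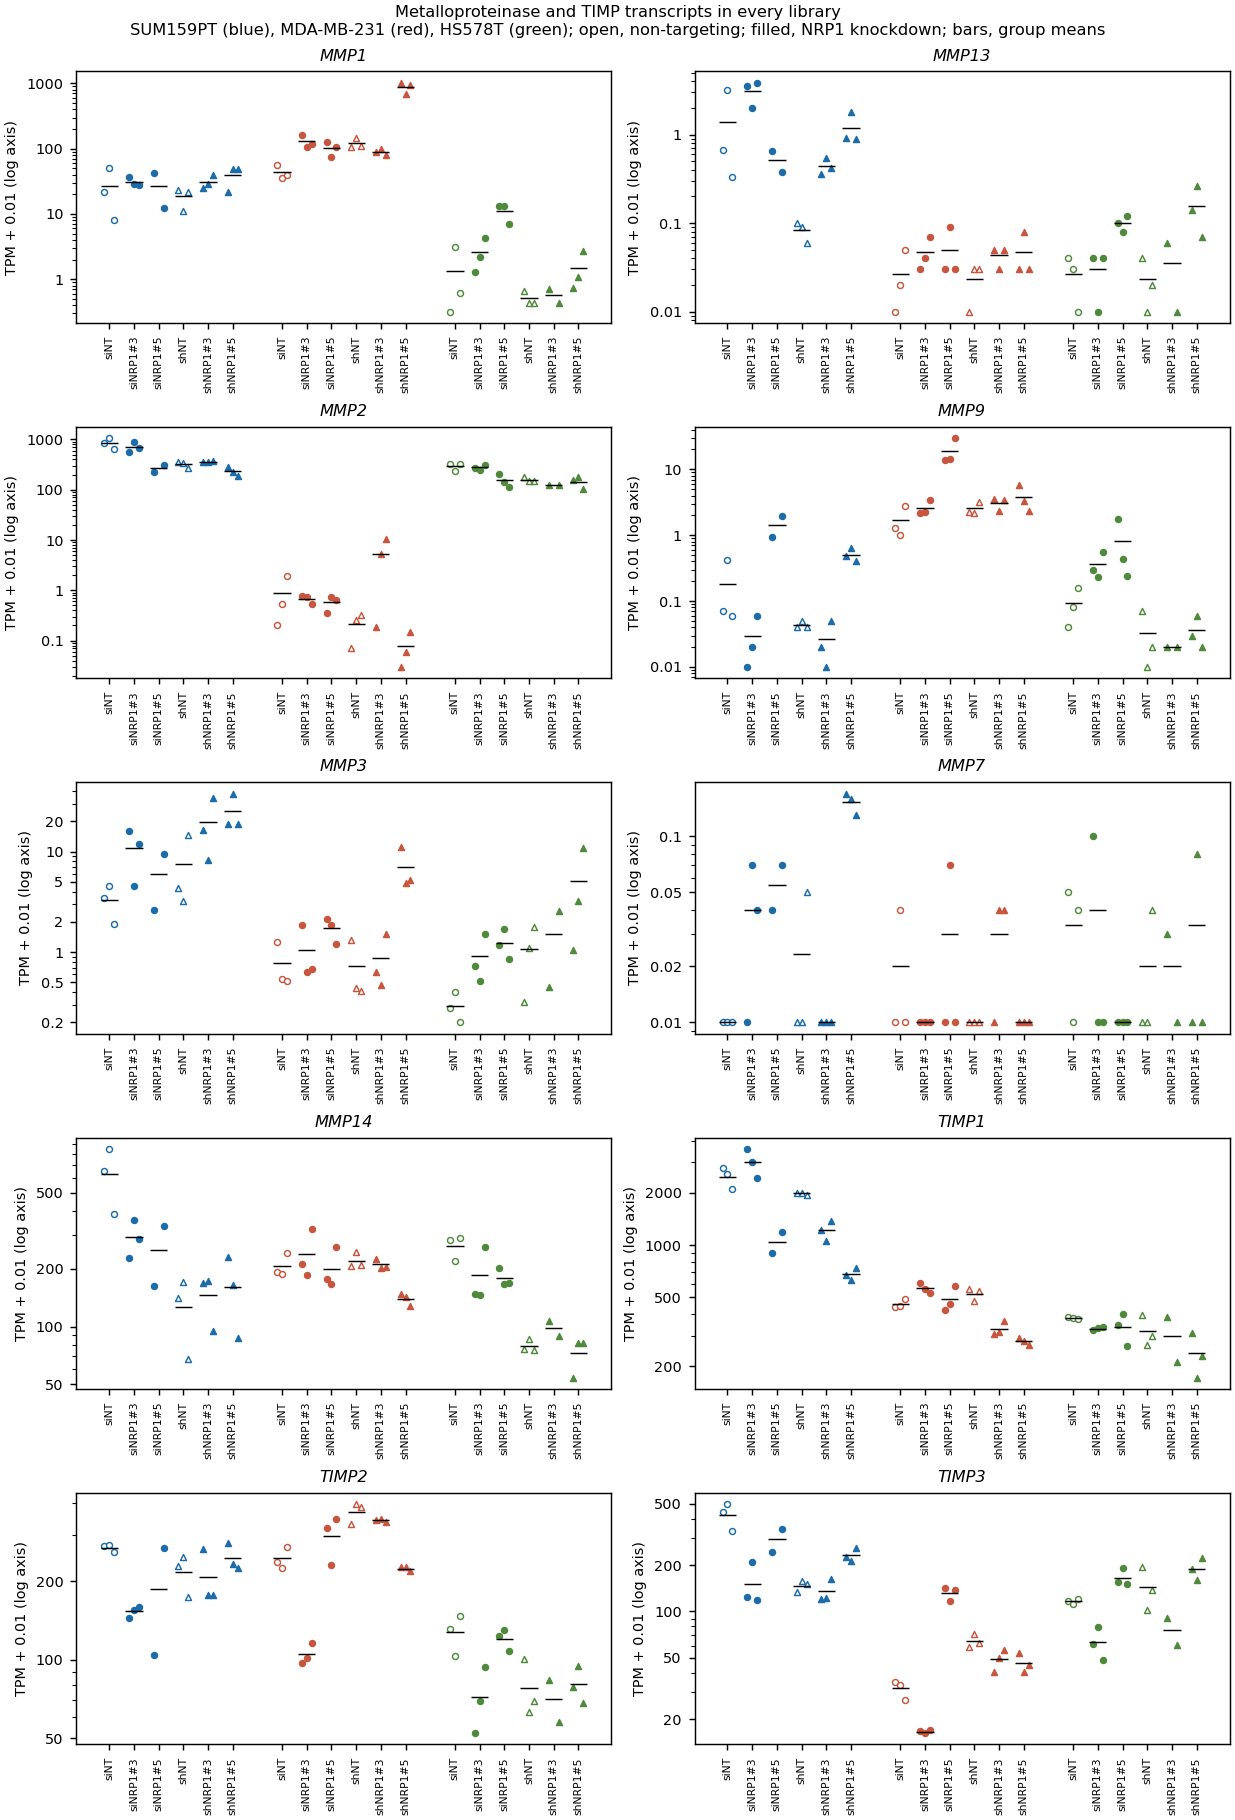
TPM of each gene (log axis, 0.01 added) in all 52 libraries, by cell line (colour) and treatment (x axis), with open symbols for non-targeting controls, filled symbols for NRP1 knockdown and bars for group means. MMP2 separates MDA-MB-231 (0.02 to 10.3 TPM) from the other 2 lines (104 to 1052 TPM), MMP1 reaches 698 to 1016 TPM in MDA-MB-231 shNRP1#5, and MMP7 stays at or below 0.16 TPM in every library.

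Between lines the controls were tested with edgeR's quasi-likelihood test and Benjamini-Hochberg adjustment over all genes, with a threshold of 0.05, which is used throughout. Each contrast took the mean of siNT and shNT of a line on the log2 scale. SUM159PT against MDA-MB-231 gave 6 of 9 tested genes higher and 2 lower, where 33.4% of all genes tested were higher and 28.3% lower. MMP14, called higher, did not differ alike in both controls. It averaged 1779 CPM in SUM159PT siNT against 428 in MDA-MB-231 siNT, but 294 against 381 in shNT. MMP1 averaged 45.4 against 53.8 CPM in siNT and 27.4 against 134 in shNT, in the same order of lines. The largest difference was in MMP2 (gelatinase A), with a log2 fold change of 10.73 ± 0.50 (SE) and an edgeR adjusted p of 4.385e-12. MMP1 was lower in SUM159PT by 1.26 on the log2 scale, and that call ended without SUM159PT siNT replicate 1 (−1.19, edgeR adjusted p = 0.057) or shNT replicate 2 (−1.12, 0.058), and after subtraction of other-line reads (−1.26, 0.097). HS578T against MDA-MB-231 gave 3 higher and 3 lower (36.4% and 36.8% of all genes), and among them MMP1 differed by −5.61 ± 0.55 (edgeR adjusted p = 6.965e-08). The TIMP1 difference turned with the unit. In the counts that were tested it was 0.30 higher in HS578T, whereas in TPM every HS578T control (265.9 to 397 TPM) lay below every MDA-MB-231 control (437.5 to 557). The call from counts ended with no filter on low counts (0.21, edgeR adjusted p = 0.23) and without any 1 of 5 libraries (HS578T shNT replicate 1 or siNT replicate 2, MDA-MB-231 siNT replicate 1 or shNT replicate 2 or 3), with values of 0.19 to 0.30. HS578T against SUM159PT gave 0 higher and 8 lower (31% and 35.5% of all genes), MMP9 being the 1 gene without a call. Of these 8, MMP2 (−0.86) lost its call without HS578T siNT replicate 2 or shNT replicate 3 or SUM159PT siNT replicate 1 or 2 (−0.83 to −0.77) and with DESeq2 (−0.79, DESeq2 adjusted p = 0.061), and MMP14 (−0.69) without SUM159PT siNT replicate 2 (−0.45, edgeR adjusted p = 0.054).

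Each knockdown was then compared with its own control. In SUM159PT, siNRP1#3 gave 0 genes higher and 3 lower of 9 tested (all genes 3.16% higher, 5.5% lower), and siNRP1#5 gave 1 higher and 2 lower (9% and 8.89%). With shRNA, shNRP1#3 gave 0 and 0 (0.339% and 1.06%) and shNRP1#5 gave 2 higher and 1 lower (3.24% and 2.7%). In MDA-MB-231, where MMP7 and MMP13 were too low and 8 genes were tested, siNRP1#3 gave 1 higher and 2 lower (11.4% and 14.3%) and siNRP1#5 gave 5 higher and 0 lower (14.4% and 14.9%). The shRNAs gave 1 and 1 for shNRP1#3 (1.46% and 2.19%) and 2 and 4 for shNRP1#5 (8.79% and 11.9%). In HS578T, siNRP1#3 gave 0 and 0 (2.31% and 2.34%) and siNRP1#5 gave 2 higher and 1 lower (10.1% and 8.53%). For HS578T shNRP1#3 (0.00509% and 0.0305% of all genes) and shNRP1#5 (0.275% and 0.671%) the count was 0 in both directions, in a fit that made few calls on any gene. Counts of 1 of 8 or 9 beside a background of 9% or more were close to it. Counts of 0 in both directions were by edgeR. At an unadjusted p under 0.05 they were 1 higher and 1 lower in SUM159PT shNRP1#3, and in HS578T 1 and 2 for siNRP1#3, 0 and 1 for shNRP1#3 and 2 and 0 for shNRP1#5. DESeq2 called 1 and 1, 0 and 2, 0 and 0, and 1 and 0 in the same order. The median log2 fold change of the tested members ran from −0.49 (MDA-MB-231 shNRP1#5) to 0.97 (MDA-MB-231 siNRP1#5), while the median of all genes stayed between −0.01 and 0.03. MMP9 after siNRP1#5 was the 1 gene called in the same direction (higher) in all 3 lines by the same sequence, and its HS578T value rests on libraries with other-line reads. Both siRNAs of a line share siNT and both shRNAs share shNT, so their calls are not independent.

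**Figure D2:**
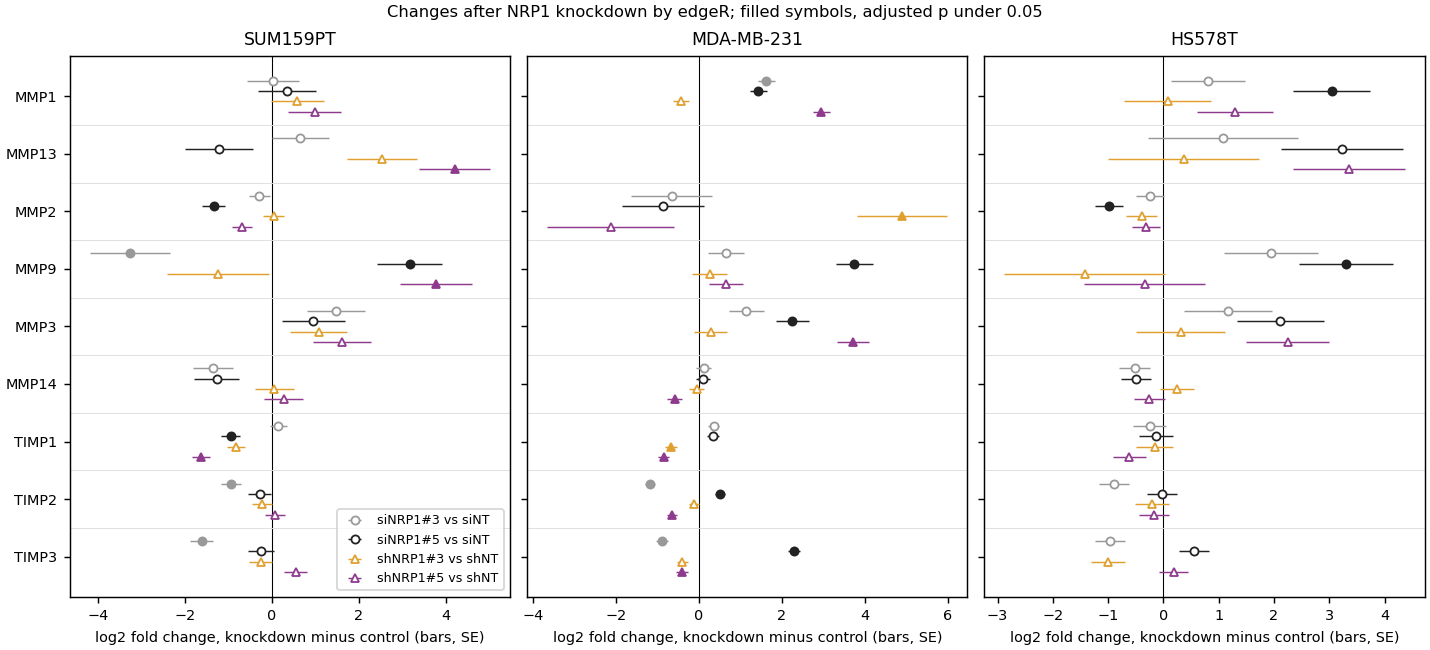
Log2 fold changes (x axis, knockdown minus its non-targeting control, bars are SE) of the tested genes (9 in SUM159PT and HS578T, 8 in MDA-MB-231), circles for siRNA and triangles for shRNA, filled where the edgeR adjusted p was under 0.05. MMP9 lies at −3.27 after siNRP1#3 and at 3.17 after siNRP1#5 in SUM159PT, and TIMP3 at −0.89 and 2.29 in MDA-MB-231.

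Collagenases open fibrillar collagen, and MMP1 (interstitial collagenase) was called higher in 4 of the 12 knockdown comparisons and lower in 0. In MDA-MB-231 it was 55.5, 36.1 and 39.4 TPM in siNT, 163, 107 and 119.6 after siNRP1#3 and 127, 74.5 and 104 after siNRP1#5. Each knocked-down sample lay above every siNT sample. The log2 fold changes were 1.63 ± 0.20 (edgeR adjusted p = 1.148e-05) and 1.43 ± 0.20 (2.344e-05). With shRNA, MMP1 was 105.5, 145 and 110.4 TPM in shNT, 90.1, 99.3 and 80.7 after shNRP1#3 and 1016, 698 and 946 after shNRP1#5. The shNRP1#5 level was 7.72-fold that of shNT (log2 2.95 ± 0.21, edgeR adjusted p = 1.155e-07) and the highest of any group, whereas the shNRP1#3 samples lay below the controls without passing the test (−0.42, 0.27). Leaving out any 1 library kept these 3 calls. In SUM159PT the 17 libraries ran from 7.94 to 49.8 TPM with overlapping groups, and no comparison there was called.

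MMP1 in HS578T carries a limit of another kind. It was 0.31, 3.08 and 0.60 TPM in siNT and 13.1, 13.4 and 7.10 TPM after siNRP1#5, with no overlap (log2 fold change 3.04 ± 0.70, edgeR adjusted p = 0.0076). These are the libraries with the highest MDA-MB-231 share, and MDA-MB-231 controls held 36.1 to 145 TPM of MMP1. At that share, MDA-MB-231 and SUM159PT RNA at their control levels would bring 24.1, 20.2 and 13.1 of the 29.8, 23.5 and 16.6 CPM measured, and at the levels of the siNRP1#5-treated donor lines 43.4, 40.5 and 23.2 CPM. With the control-level reads subtracted the log2 fold change was 1.62 and the edgeR adjusted p 0.42, and with the treated-level reads subtracted no MMP1 reads remained in siNRP1#5. Without these libraries the comparison has no treated sample.

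MMP13 (collagenase-3) had 4 to 358 counts in SUM159PT, 0 to 7 in MDA-MB-231 and 0 to 22 in HS578T. The SUM159PT counts were 9, 6 and 4 in shNT, 32, 37 and 23 after shNRP1#3 and 74, 187 and 73 after shNRP1#5, so the groups did not overlap. For shNRP1#5 the log2 fold change was 4.21 ± 0.82 (edgeR adjusted p = 0.0055), kept without any 1 library, and the ratio of summed counts scaled to depth was 19.4 (95% exact interval 12.2 to 32.7, for counting error only). For shNRP1#3 it was 2.54 ± 0.81 (edgeR adjusted p = 0.16). DESeq2 (2.55, DESeq2 adjusted p = 0.022) and a fit of the compared groups alone (2.53, edgeR adjusted p = 0.040) called MMP13 higher there. The siRNA arm stood on another level, with 65, 358 and 28 counts in siNT, 261, 175 and 309 after siNRP1#3 and 67 and 49 after siNRP1#5. There the groups overlapped siNT, whose replicate 2 was highest, and neither comparison was called. In HS578T, siNRP1#5 held 24 counts in all against 2 in siNT (ratio 10.9, 95% exact interval 2.69 to 94.7), which missed the threshold (log2 fold change 3.22, edgeR adjusted p = 0.051). That group holds reads of other lines, and after their subtraction at control levels the value was 3.02 (0.12).

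The gelatinases MMP2 and MMP9 cleave denatured collagen and type IV collagen of basement membranes. MMP2 was 858, 1052 and 636 TPM in SUM159PT siNT, 561, 901 and 682 after siNRP1#3, and 222 and 315 after siNRP1#5. Both siNRP1#5 samples lay below all others of that arm (log2 fold change −1.34 ± 0.27, edgeR adjusted p = 0.0042), but in a fit of the 2 groups alone the adjusted p was 0.10. In HS578T it was 319, 241 and 322 TPM in siNT and 207, 140.0 and 115 after siNRP1#5, again without overlap (−0.99 ± 0.25, 0.014). That call ended without siNT replicate 3 or siNRP1#5 replicate 2 or 3 (values −0.91 to −0.84, edgeR adjusted p up to 0.064) and after subtraction of the other lines' control-level reads (−0.73, 0.093). The siNRP1#3 and shRNA comparisons of MMP2 in these 2 lines were not called, with log2 fold changes from −0.69 to 0.04.

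In MDA-MB-231, MMP2 was 0.06, 0.25 and 0.31 TPM in shNT and 0.18, 5.15 and 10.3 TPM after shNRP1#3, which overlapped. The log2 fold change was 4.90 ± 1.09 (edgeR adjusted p = 0.024), and the call ended without any 1 of 5 of the 6 libraries (shNT replicate 1, 2 or 3, or shNRP1#3 replicate 2 or 3), with values of 4.02 to 5.20 and adjusted p up to 0.10. The order of the 3 shNRP1#3 libraries in MMP2 was that of their SUM159PT share (0.0756, 0.676 and 2.48%) and HS578T share (0, 0.159 and 2.05%). Those shares would bring 0.918, 9.20 and 43.0 CPM at control levels against the 0.218, 8.54 and 15.9 CPM measured. After that subtraction MMP2 was too low in MDA-MB-231 to be tested.

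**Figure D3:**
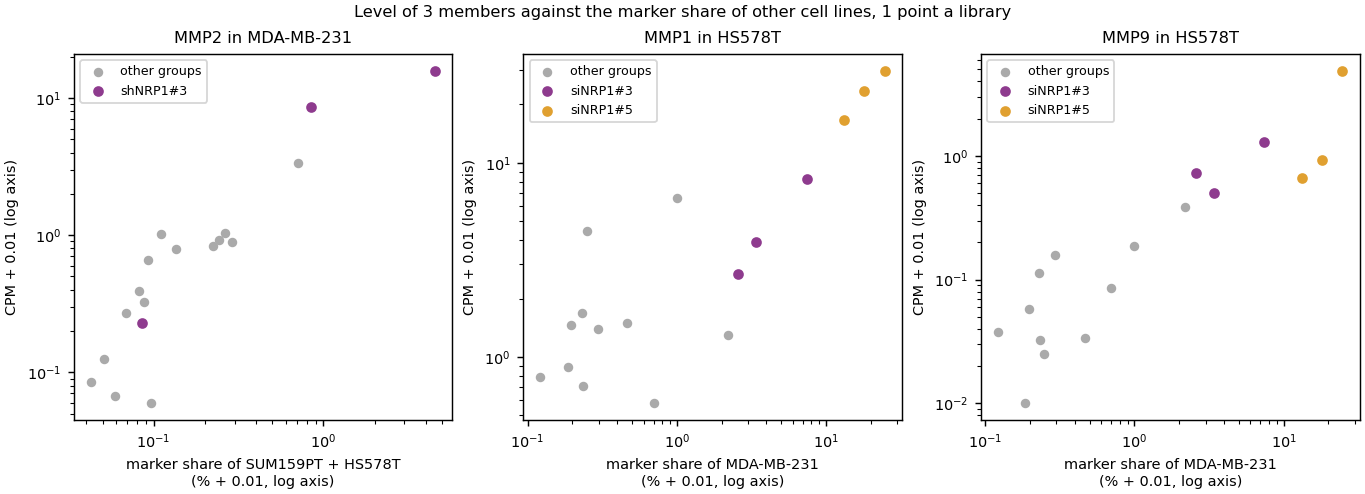
CPM (y axis, log, 0.01 added) of MMP2 in MDA-MB-231 and of MMP1 and MMP9 in HS578T against marker shares (x axis, percent, log, 0.01 added), 1 point a library. The x axis is the summed SUM159PT and HS578T share for MMP2 and the MDA-MB-231 share alone for MMP1 and MMP9. The shNRP1#3 libraries with 8.54 and 15.9 CPM of MMP2 and the siNRP1#5 libraries with 16.6 to 29.8 CPM of MMP1 are also those with the highest shares.

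MMP9 (gelatinase B) was called in 5 of 12 comparisons, 4 higher and 1 lower, from low counts outside MDA-MB-231. In MDA-MB-231 it was 1.28, 0.99 and 2.76 TPM in siNT, 2.14, 2.23 and 3.44 after siNRP1#3 and 13.7, 14.1 and 29.6 after siNRP1#5. The siNRP1#5 samples lay far above all others of the line (log2 fold change 3.74 ± 0.44, edgeR adjusted p = 1.158e-05), and the call held without any 1 library. The shRNA groups of that line spanned 2.20 to 5.73 TPM with no call. In SUM159PT the counts were 5, 39 and 4 in siNT, 0, 1 and 4 after siNRP1#3 and 81 and 218 after siNRP1#5. Replicate 2 of siNT stood above the other controls, and siNRP1#5 above all of them. For siNRP1#3 the log2 fold change was −3.27 ± 0.92 (edgeR adjusted p = 0.036), at a ratio of summed counts of 0.0995 (95% exact interval 0.0309 to 0.249), and the call ended without siNT replicate 2 (−1.46, 0.33), siNRP1#3 replicate 1 (−2.76, 0.14) or replicate 2 (−3.05, 0.10). For siNRP1#5 it was 3.17 ± 0.75 (0.0099), kept without any 1 library but not in a fit of the 2 groups alone (0.12).

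With shRNA, SUM159PT MMP9 had 3 counts in each shNT library, 1, 0 and 2 after shNRP1#3 and 33, 56 and 28 after shNRP1#5. The shNRP1#5 counts lay above all others, with a log2 fold change of 3.78 ± 0.83 (edgeR adjusted p = 0.012) and a ratio of 14.4 (95% exact interval 7.31 to 32.2). Without shNT replicate 1, 2 or 3 or shNRP1#5 replicate 2 the log2 fold change was 3.56 to 3.84 and the edgeR adjusted p 0.051 to 0.057. In HS578T the counts were 2, 6 and 12 in siNT and 124, 35 and 25 after siNRP1#5 (log2 fold change 3.30 ± 0.85, edgeR adjusted p = 0.013), highest in the replicate with the highest MDA-MB-231 share. The call ended without that replicate (siNRP1#5 replicate 1, 1.85, 0.12) or siNT replicate 2 (3.18, 0.059). The shares would bring 0.736, 0.553 and 0.395 of the 4.87, 0.913 and 0.651 CPM measured at control levels of the donor lines, but 9.73, 7.96 and 5.05 CPM at their siNRP1#5 levels. The first subtraction left a call (3.66, 0.045) and the second did not (−5.56, 0.080). The second took away more than was measured in each siNRP1#5 library, so no MMP9 reads remained there and −5.56 is not a measured fall.

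MMP3 (stromelysin-1) degrades proteoglycans and can activate other proenzymes. It had a log2 fold change above 0 in all 12 comparisons and was called higher in 2, both in MDA-MB-231. The sign did not always hold. With 1 library left out the value went down to −0.35 in SUM159PT siNRP1#5 and −1.15 in HS578T shNRP1#3. After subtraction at same-treatment levels it was −0.47 in MDA-MB-231 shNRP1#3. In MDA-MB-231, MMP3 was 1.26, 0.53 and 0.50 TPM in siNT and 2.10, 1.85 and 1.20 after siNRP1#5. It was 1.32, 0.43 and 0.40 TPM in shNT and 11.2, 4.83 and 5.26 after shNRP1#5. Values in TPM overlapped for the siRNA and not for the shRNA, while those in CPM overlapped in neither. The log2 fold changes were 2.25 ± 0.41 (edgeR adjusted p = 0.00037) and 3.72 ± 0.39 (7.683e-06), both kept without any 1 library. In SUM159PT the levels were higher, 1.88 to 37.8 TPM, and replicates of one group differed severalfold, as in shNT with 4.37, 3.24 and 14.7 TPM. HS578T ran from 0.19 to 10.8 TPM, and neither of these lines gave an edgeR call for MMP3. DESeq2 called it higher in MDA-MB-231 siNRP1#3 (1.14, DESeq2 adjusted p = 0.034) and in HS578T siNRP1#5 (2.12, 0.026) and shNRP1#5 (2.21, 0.037).

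MMP7 could not be tested in any line. Its highest counts were 5, 6 and 4 in SUM159PT shNRP1#5 against 0, 0 and 2 in shNT, a ratio of 8.28 with an exact 95% interval of 1.93 to 74.7. MMP14 (membrane type 1), which activates proMMP2 at the cell surface, was called in 1 comparison. It was 207, 245 and 211 TPM in MDA-MB-231 shNT and 148, 143 and 128 after shNRP1#5, without overlap, a fall by 0.58 on the log2 scale (SE 0.18, edgeR adjusted p = 0.025). That call ended without shNT replicate 2 or 3 or shNRP1#5 replicate 2 or 3 (values −0.62 to −0.51, edgeR adjusted p up to 0.11). In SUM159PT, MMP14 was 653, 847 and 389.8 TPM in siNT, 229.5, 362.5 and 288 after siNRP1#3 and 164 and 336 after siNRP1#5. All 5 knocked-down samples lay below the 3 controls, with log2 fold changes of −1.36 ± 0.45 (edgeR adjusted p = 0.074) and −1.27 ± 0.52 (0.10), so neither passed. With the replicate number as a block over all 6 groups of the line, siNRP1#3 gave −1.26 and an edgeR adjusted p of 0.034. DESeq2 also called MMP14 lower after siNRP1#3 (−1.37, DESeq2 adjusted p = 0.024).

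Among the inhibitors, TIMP1 was called lower in 4 of 12 comparisons and higher in 0. In SUM159PT it was 2782, 2560 and 2116 TPM in siNT, 3590, 3021 and 2427 after siNRP1#3 and 899.5 and 1193 after siNRP1#5. Only siNRP1#5 lay below the controls, with a fall by 0.95 on the log2 scale (SE 0.23, edgeR adjusted p = 0.010), which was not called in a fit of the 2 groups alone (0.16). In the shRNA arm it was 1993, 2013 and 1960 TPM in shNT, 1218, 1062 and 1372 after shNRP1#3 and 671, 633 and 743 after shNRP1#5. The 3 groups did not overlap, shNRP1#5 being lowest (−1.63 ± 0.20, edgeR adjusted p = 0.00018). For shNRP1#3 the log2 fold change of −0.82 ± 0.20 missed the threshold (edgeR adjusted p = 0.051). With the replicate number as a block over all 6 groups of the line it was −0.82 with an edgeR adjusted p of 0.039. DESeq2 (−0.83, DESeq2 adjusted p = 0.0040) and a fit of the compared groups alone (−0.83, edgeR adjusted p = 0.022) called it lower.

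In MDA-MB-231, TIMP1 was 557, 477 and 540.4 TPM in shNT, 307, 317 and 366 after shNRP1#3 and 291, 279.5 and 267 after shNRP1#5. Both knockdowns lay below every control and fell by 0.68 (edgeR adjusted p = 0.0080) and 0.85 (0.00039) on the log2 scale, also without any 1 library. After siRNA the same line gave log2 fold changes of 0.36 (0.065) and 0.34 (0.076), which were not called. HS578T stayed between 172 and 398 TPM with no call.

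TIMP2 is the inhibitor that also takes part in the activation of proMMP2. In MDA-MB-231 it was 237, 226 and 272 TPM in siNT, 97.1, 101 and 116 after siNRP1#3 and 321, 231 and 346 after siNRP1#5. The siNRP1#3 samples lay below every control (log2 fold change −1.18 ± 0.12, edgeR adjusted p = 1.621e-06), and those of siNRP1#5 overlapped the controls in TPM but not in CPM (0.51 ± 0.12, 0.0035; 0.10 in a fit of the 2 groups alone). It was 331, 395 and 385 TPM in shNT and 226, 226 and 219 after shNRP1#5, a fall by 0.65 (edgeR adjusted p = 0.0011). In SUM159PT it was 272, 277 and 259.8 TPM in siNT and 144, 156 and 160.0 after siNRP1#3, without overlap (−0.94 ± 0.24, 0.020). That call ended without siNT replicate 2 or siNRP1#3 replicate 1 or 3 (values −0.91 to −0.83, edgeR adjusted p up to 0.086). HS578T siNRP1#3, at 52.3, 69.4 and 94.0 TPM against 131, 103 and 147 in siNT, did not pass (−0.89 ± 0.27, 0.073), but did with DESeq2 (−0.87, DESeq2 adjusted p = 0.038).

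TIMP3, which is held in the matrix and also inhibits ADAM17 and ADAMTS enzymes, moved in opposite directions with the 2 siRNAs in MDA-MB-231. It was 35.1, 33.3 and 26.6 TPM in siNT, 16.7, 16.3 and 16.9 after siNRP1#3 and 142, 117 and 138 after siNRP1#5. None of these groups overlapped. The log2 fold changes were −0.89 ± 0.14 (edgeR adjusted p = 0.000135) and 2.29 ± 0.14 (1.58e-09), and neither call rested on 1 library. In SUM159PT it was 440.4, 496 and 332 TPM in siNT, 124, 209 and 118 after siNRP1#3 and 244 and 345 after siNRP1#5. Only siNRP1#3 lay below all controls (−1.62 ± 0.27, edgeR adjusted p = 0.0019). In HS578T it was 118, 113 and 119.8 TPM in siNT, 61.9, 79.9 and 48.7 after siNRP1#3 and 156, 190.1 and 151 after siNRP1#5, where the groups did not overlap but neither comparison passed (−0.97, 0.051, and 0.55, 0.17). With control-level reads of the other lines subtracted, HS578T siNRP1#5 gave 0.87 (0.047). HS578T siNRP1#3 was called lower by DESeq2 (−0.95, DESeq2 adjusted p = 0.017) and in a fit of the compared groups alone (−0.96, edgeR adjusted p = 0.038), but not after subtraction of control-level reads (−0.95, 0.072).

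With shRNA, TIMP3 was called in 1 comparison. MDA-MB-231 shNRP1#5, at 53.8, 40.3 and 44.8 TPM against 58.9, 71.8 and 62.3 in shNT, fell by 0.41 on the log2 scale (edgeR adjusted p = 0.042). Without any 1 of shNT replicate 1, 2 or 3 or shNRP1#5 replicate 2 or 3 it was −0.46 to −0.31 (edgeR adjusted p up to 0.19), and shNRP1#5 replicate 1 was the only compared library without which the call stood. It also ended without siNRP1#3 replicate 1 or 2 or shNRP1#3 replicate 2, which share the estimate of spread (−0.41 to −0.40, up to 0.055). TIMP3 in MDA-MB-231 shNRP1#3 was not called, but 3 of 8 alternative settings called it lower. Among them were subtraction of control-level reads of the other lines (−0.55, edgeR adjusted p = 0.022) and a fit of the compared groups alone (−0.40, 0.048). SUM159PT and HS578T had no call for TIMP3 with shRNA.

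**Figure D4:**
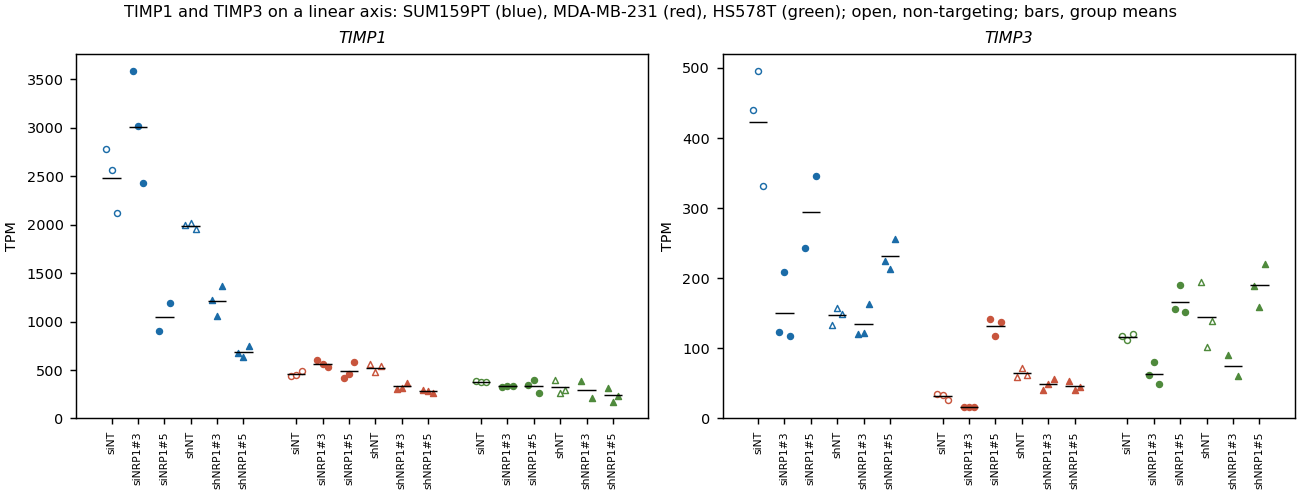
TPM (linear y axis) of TIMP1 and TIMP3 in all 52 libraries by line (colour) and treatment (x axis), open symbols for non-targeting controls and bars for group means. TIMP1 falls from 1960 to 2013 TPM in SUM159PT shNT to 633 to 743 TPM after shNRP1#5, and TIMP3 in MDA-MB-231 lies at 16.3 to 16.9 TPM after siNRP1#3 and 117 to 142 TPM after siNRP1#5.

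A change past the threshold with one sequence and not the other was tested as a difference. In SUM159PT, siNRP1#5 against siNRP1#3 called 4 of 9 genes (29.7% of all genes in either direction). MMP9 was higher by 6.44 ± 0.94 on the log2 scale (299 counts in 2 libraries against 5 in 3, ratio 96.1, 95% exact interval 40.7 to 298), TIMP3 was higher by 1.36, and TIMP1 and MMP2 were lower by −1.10 and −1.06 (MMP2 −0.95, edgeR adjusted p = 0.056, without siNRP1#5 replicate 2, and −1.05, 0.058, with the groups compared alone). With shRNA 2 of 9 genes differed (8.71%), MMP9 by 5.03 ± 0.97 (117 counts against 3, ratio 37.0, 95% exact interval 12.4 to 182) and TIMP1 by −0.81 ± 0.20. The TIMP1 call ended without shNRP1#3 replicate 3 or shNRP1#5 replicate 1 or 2 (−0.78 to −0.74, edgeR adjusted p up to 0.074). Between these shRNAs DESeq2 also called TIMP3 higher (0.82, DESeq2 adjusted p = 0.041) and MMP2 lower (−0.71, 0.046). Between the siRNAs it also called MMP13 lower (−1.85, 0.047).

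In MDA-MB-231, siNRP1#5 against siNRP1#3 called 4 of 8 genes (39% of all genes), all higher. TIMP3 differed by 3.17 ± 0.15, MMP9 by 3.09 ± 0.43, TIMP2 by 1.70 ± 0.12 and MMP3 by 1.11 ± 0.38. The MMP3 call ended without siNRP1#3 replicate 2 or 3 or siNRP1#5 replicate 1 or 2 (0.96 to 1.07, edgeR adjusted p up to 0.0996). With shRNA 4 of 8 genes differed (14.2%), MMP3 by 3.43, MMP1 by 3.37, TIMP2 by −0.54 and MMP2 by −7.03, the last from the shNRP1#3 libraries with reads of other lines. That call ended with the groups compared alone (−7.06, edgeR adjusted p = 0.054), and after subtraction MMP2 was too low to be tested. MMP14 was not called between these shRNAs, but 4 of 8 alternative settings called it lower. Among them was the fit of the groups compared alone (−0.53, edgeR adjusted p = 0.00059). In HS578T the siRNAs differed in 3 of 9 genes (18.1%), TIMP3 by 1.51 ± 0.27, MMP1 by 2.23 ± 0.68 and TIMP2 by 0.87 ± 0.27. Both of these groups held other-line reads, and the MMP1 and TIMP2 calls each ended without siNRP1#3 replicate 1 or 2 or siNRP1#5 replicate 1 or 2, and that of TIMP2 also without siNRP1#5 replicate 3 (MMP1 1.94 to 2.24, TIMP2 0.72 to 0.95). With control-level reads of the other lines subtracted, MMP1 gave 3.52 (edgeR adjusted p = 0.10), and with same-treatment reads subtracted TIMP2 gave 0.48 (0.31) and no MMP1 reads remained in siNRP1#5. DESeq2 also called MMP2 lower between these siRNAs (−0.75, DESeq2 adjusted p = 0.033). The HS578T shRNAs differed in 0 of 9 genes by edgeR (0.544%), with 3 at an unadjusted p under 0.05 and 1 by DESeq2. That gene was TIMP3, which, at 1.19 ± 0.31 (edgeR adjusted p = 0.099), passed with DESeq2 (1.15, DESeq2 adjusted p = 0.020).

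Since siNRP1#5 and shNRP1#5 have the same sequence, their effects against their own controls were set against each other. In SUM159PT 1 of 9 genes differed (2.51% of all genes), MMP13 by −5.42 ± 1.15 (edgeR adjusted p = 0.028). That call ended without siNRP1#5 replicate 3, shNT replicate 1 or 3 or shNRP1#5 replicate 1 or 2 (−5.82 to −4.93, edgeR adjusted p up to 0.069), and with the groups compared alone (−5.36, 0.10). In MDA-MB-231 5 of 8 differed (23.7%). The siRNA effect was the higher one for MMP9 (3.09), TIMP3 (2.69), TIMP1 (1.19) and TIMP2 (1.17), and the lower one for MMP1 (−1.51). In HS578T 0 of 9 differed by edgeR (0.854%), with 1 at an unadjusted p under 0.05 and 0 by DESeq2. Delivery, selection, time of harvest and the fall in NRP1 (log2 −4.88 with siRNA and −1.05 with shRNA in MDA-MB-231) differ together here and cannot be told apart.

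Equality of each effect over the 3 lines was tested in one model of all 52 samples. For siNRP1#3 1 of 9 genes differed between lines (3.42% of all genes), MMP9 with an edgeR adjusted p of 0.025. For siNRP1#5 3 of 9 differed (18.2%): TIMP3 (6.711e-06), MMP13 (0.019) and TIMP1 (0.022), by edgeR. For shNRP1#3 1 of 9 differed (0.747%), MMP2 (0.0012), which is the gene of the MDA-MB-231 libraries with other-line reads. For shNRP1#5 0 of 9 differed by edgeR (3.81%), with 4 at an unadjusted p under 0.05.

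The non-targeting controls themselves differed between arms, so levels should be read within an arm. In SUM159PT, shNT against siNT called 0 genes higher and 5 lower (5.96% and 8.45% of all genes): MMP13 by −4.84, MMP9 by −2.69, MMP14 by −2.62, TIMP3 by −1.74 and MMP2 by −1.47 on the log2 scale. The MMP9 call rested on siNT replicate 2, without which it was −0.89 (edgeR adjusted p = 0.46), and also ended without shNT replicate 1, 2 or 3 (−2.74 to −2.59) or, by way of the shared spread, without shNRP1#3 replicate 1 or shNRP1#5 replicate 1 or 2. In MDA-MB-231 3 were higher and 0 lower (10.7% and 9.85%): MMP1 by 1.29, TIMP3 by 0.84 and TIMP2 by 0.41. The TIMP2 call ended without siNT replicate 1 or 2 or shNT replicate 2 or 3 (0.35 to 0.40, edgeR adjusted p up to 0.094). In HS578T 0 were higher and 2 lower (9.14% and 8.8%), MMP14 by −1.80 and MMP2 by −0.99, and MMP2 lost its call without shNT replicate 2 or 3 (−0.96 and −0.89, edgeR adjusted p up to 0.071) or when every HS578T library with a marker share of 2% or more was left out (−0.84, 0.053). Here, as in every bulk comparison above, fewer expressing cells and less RNA per cell cannot be told apart.

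Further lists of the same system, 3 in all, were counted in the same fits. Of 17 other family members, 9 or 10 could be tested per line, and the counts were highest in MDA-MB-231 siNRP1#3 (2 higher and 3 lower of 10, all genes 11.4% and 14.3%) and shNRP1#5 (0 higher and 4 lower of 10, all genes 8.79% and 11.9%). MMP19 was called in 4 comparisons, lower in SUM159PT siNRP1#5 (log2 fold change −1.17) and HS578T siNRP1#3 (−1.10) and higher in SUM159PT shNRP1#5 (1.07) and MDA-MB-231 siNRP1#5 (0.53). TIMP4, the fourth inhibitor, was lower with both siRNAs in MDA-MB-231 (−1.20 and −0.71) and higher in HS578T siNRP1#5 (2.97). That group holds MDA-MB-231 reads, and TIMP4 was 12.2 CPM in MDA-MB-231 siNT and 0.246 CPM in HS578T siNT. After control-level subtraction TIMP4 was too low to be tested in HS578T. MMP15, another membrane-type enzyme, was higher in SUM159PT shNRP1#5 (1.97) and lower in MDA-MB-231 siNRP1#3 (−1.29) and shNRP1#5 (−0.74).

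Of 12 activators, inhibitors and cofactors, 10 or 11 were tested, with 0 to 2 higher and 0 to 5 lower in a comparison. The 5 lower were of 11 in SUM159PT siNRP1#5 (all genes 8.89%). The 2 higher were of 11 in MDA-MB-231 siNRP1#3, shNRP1#3 and shNRP1#5 (all genes 11.4%, 1.46% and 8.79%). CD44, which can dock MMP9 at the cell surface, was lower in 4 comparisons, all with siRNA: SUM159PT siNRP1#3 (−1.03) and siNRP1#5 (−1.62), MDA-MB-231 siNRP1#5 (−0.98) and HS578T siNRP1#3 (−0.82). RECK, a membrane-anchored inhibitor of several of these enzymes, was lower in SUM159PT siNRP1#5 (−1.44) and in MDA-MB-231 siNRP1#3 (−0.72) and shNRP1#5 (−0.72). Of 12 other metalloproteinases that TIMPs can inhibit, with 9 to 12 tested, up to 5 were lower (of 9 in MDA-MB-231 siNRP1#3, all genes 14.3%) and up to 5 higher (of 12 in HS578T siNRP1#5, all genes 10.1%). ADAM9, a sheddase, was lower after siNRP1#3 in all 3 lines (−1.67 to −1.35) and higher in HS578T siNRP1#5 (1.00). After shNRP1#3, which has another sequence, ADAM9 was not called in SUM159PT (0.70), MDA-MB-231 (0.08) or HS578T (0.36). ADAM10, another sheddase, was lower in MDA-MB-231 siNRP1#3 (−1.28) and shNRP1#5 (−0.50) and higher in HS578T siNRP1#5 (1.09), and ADAM12 was lower in MDA-MB-231 and HS578T siNRP1#3 (−1.37 and −0.86) and higher in MDA-MB-231 shNRP1#3 (0.81). Some of these calls rest on libraries with reads of other lines. After subtraction at control levels, HS578T siNRP1#5 gave 1.09 for ADAM9 (edgeR adjusted p = 0.056) and 1.09 for ADAM10 (0.035), HS578T siNRP1#3 gave −0.79 for ADAM12 (0.063), and MDA-MB-231 shNRP1#3 gave 0.47 for ADAM12 (0.19). At same-treatment levels the HS578T siNRP1#3 calls of ADAM9 (−1.37, 0.053), ADAM12 (−0.77, 0.085), CD44 (−0.76, 0.060) and MMP19 (−1.21, 0.051) also ended, by edgeR.

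In libraries with at least 1 TPM of a gene, which MMP7 never reached, most of its TPM came from protein-coding transcripts. MMP1-201 held 95.4 to 100% of MMP1 and TIMP1-201 held 88.7 to 94.2% of TIMP1, and MMP9 and TIMP3 have 1 annotated transcript. MMP2-201 held 31.2 to 59.6% and MMP14-201 64.7 to 93.3%. For TIMP2 the leading transcript, TIMP2-203, held 38.2 to 73.4%, and by group it was lowest in HS578T siNRP1#3 at 42.5 ± 6.98% (SD, n = 3) against 61.9 ± 5.65% in siNT. These shares are the authors' estimates and were not tested.

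The genes whose group means ran most like each member were sought over 18 group means and 23416 genes, as a description, since the points share the cell lines. MMP2 ran most like ANPEP (Pearson's r 0.995) and GABRA3 (0.992), MMP9 like ADRB1 (0.955) and LINC01537 (0.939), and TIMP1 like EYA2 (0.952) and MYCNUT (0.949). TIMP3 ran most like CD63 (0.909), TIMP2 like IGSF3 (0.894) and IFIT1 (0.890), and MMP3 like PCDH9 (0.927). MMP1 and MMP14 had an unnamed locus first (0.959 and 0.924) and then SNHG7 (0.957) and LMF1 (0.885).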

How the data were processed

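RNA-seq libraries (poly(A)-selected, stranded) were processed by the authors with FastQC 0.11.9, Trim Galore 0.6.5, STAR 2.7.2b and RSEM 1.3.3 on GRCh38, per the labels and the study's methods. The expected counts and the TPM of 78894 genes and 387954 transcripts were deposited as RSEM wrote them, and the percent of a gene's TPM that each transcript takes was likewise deposited by the authors as an RSEM estimate. No column was left without a sample. Total counts per sample limit the precision of low genes, and intervals and floors cover counting error only.

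The 10 genes, the further lists, the markers and the tests were chosen with earlier results of these data known. Expected counts were rounded to whole numbers, and each line was fitted with its 6 groups in edgeR 4.0.16 (R 4.3.3, filterByExpr, TMM normalisation, robust quasi-likelihood test). Adjusted p-values are Benjamini-Hochberg values over all tested genes: 20067 in SUM159PT, 18800 in MDA-MB-231, 19661 in HS578T, 20686 for the lines' controls and 23416 for the test of equal effects. The scripts were tested on simulated data. Marker genes of another line had at most 0.5 CPM in the own controls and at least 20 CPM in the other line's. Every member is named, and of each further list the 3 genes called in most of the 12 knockdown comparisons (ties by the largest absolute log2 fold change), except 1 gene that is not reported here.

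Alternatives were DESeq2 1.42.0, RLE normalisation, no filter on low counts, a fit of the compared groups alone, the replicate number as a block, each library left out in turn, and subtraction of the reads expected from the other lines at their control levels. Subtraction at the donor lines' levels under the same treatment, and leaving out libraries with a marker share of 2% or more, were added after seeing the data. Same-numbered samples deviated together (every correlation above 0.1) in 6 of 15 comparisons, among them SUM159PT siNRP1#3 (0.265 to 0.469) and shNRP1#3 (0.171 to 0.581), and there the number was taken to pair the samples. This pairing comes from the data and not from the labels. The block was fitted over all 6 groups of a line at once, so it also held groups whose numbers did not pair.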

Additional observations from a re-analysis of the deposited data

Results flagged for a closer look

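Each difference below passed a test of the difference itself, and no explanation was weighed. In 5 results the effects were unequal over the 3 cell lines by edgeR: MMP9 after siNRP1#3 (adjusted p = 0.0253), TIMP3, MMP13 and TIMP1 after siNRP1#5 (6.71e-06, 0.0189 and 0.0217), and MMP2 after shNRP1#3 (0.00116). For MMP9 the log2 fold changes were −3.27 (SUM159PT), 0.65 (MDA-MB-231) and 1.94 (HS578T). The SUM159PT value was −1.46 without siNT replicate 2, and the HS578T values after siNRP1#3 and siNRP1#5 here rest on libraries that held reads of other lines. For TIMP3, in the same order, they were −0.26, 2.29 and 0.55, and for TIMP1 −0.95, 0.34 and −0.13. For MMP13 they were −1.22 in SUM159PT and 3.22 in HS578T. In MDA-MB-231 MMP13 had 0 to 7 counts and was too low for the fit of that line. Its SUM159PT siNT counts ran from 28 to 358, and HS578T siNRP1#5 held 24 counts in all against 2 in siNT. For MMP2 the log2 fold changes were 0.04, 4.90 and −0.39, and the MDA-MB-231 value rests on libraries that held reads of the other lines.

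In 6 further results the siRNA effect minus the shRNA effect of sequence #5 differed from 0. It was −5.42 on the log2 scale for MMP13 in SUM159PT, and −5.36 (edgeR adjusted p = 0.10) with the groups compared alone. In MDA-MB-231 it was 1.17 for TIMP2, 2.69 for TIMP3, 3.09 for MMP9, 1.19 for TIMP1 and −1.51 for MMP1. Those of MDA-MB-231 kept their call without any 1 of the 18 libraries.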

How the results depend on the processing

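Knockdown calls were counted over the 4 comparisons of a line. Higher calls were 3 in SUM159PT (9 with no filter on low counts, 2 to 5 with 1 library left out), 9 in MDA-MB-231 (8 to 11) and 2 in HS578T (7 with no filter, 4 with the replicate block, 4 with DESeq2, 0 after subtraction at same-treatment levels, 0 without the libraries with a marker share of 2% or more, 1 to 4 with 1 library left out). Lower calls were 6 in SUM159PT (4 to 9), 7 in MDA-MB-231 (11 with no filter, 5 to 7) and 1 in HS578T (3 with no filter, 3 with DESeq2, 2 with the block, 2 with the compared groups alone, 0 after either subtraction, 0 without those libraries, 0 to 3). Between shNT and siNT, HS578T went from 2 calls to 5 with no filter, 1 without those libraries and 1 to 3 with 1 library left out, SUM159PT from 5 to 4 to 6 and MDA-MB-231 from 3 to 2 to 4. Between sequences #5 and #3 the 17 calls became 26 with no filter and 15 to 21 with 1 library left out, and between lines the 22 calls became 20 to 23. The cause was not tested. Leaving out the libraries with a marker share of 2% or more removed every treated HS578T siRNA library, so those comparisons could not be fitted.

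In HS578T, subtraction at same-treatment levels turned MMP9 after siNRP1#5 to −5.56 and MMP1 to −9.07, and MMP9 between siNRP1#5 and siNRP1#3 to −7.43. In every siNRP1#5 library more reads of both genes were expected from the other lines than were measured. None remained there, so these values are not measured falls. The replicate block changed further calls of single genes only in comparisons whose numbers did not pair the samples or were not checked for it, apart from the values given beside the results. The lowest counts (MMP7, MMP13 and, outside MDA-MB-231, MMP9) limit what can be seen.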
